A study of Mus musculus with 5 samples.

Results

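Fatty acid binding proteins were followed in mouse liver after injections of CSF1-Fc, a fusion of pig macrophage colony-stimulating factor (CSF1) with the Fc region of pig immunoglobulin G. The 6 members examined were *Fabp1*, *Fabp2*, *Fabp3*, *Fabp4*, *Fabp5* and *Fabp7*, of 18820 named genes on the array, and all 6 were measured. They were chosen by family name and from this same contrast of CSF1-Fc against PBS. Their differences, and the p-values given with them, are a description and not a test. Each gene is represented by its brightest row among the array rows that carry 1 gene symbol. Liver RNA came from adult C57BL/6 mice that received subcutaneous PBS (2 mice, the controls) or CSF1-Fc (3 mice) on 4 consecutive days and were killed on day 5, with 1 Mouse Gene 1.1 ST array per mouse. The labels give no sex, and *Xist* lay between 2.57 and 3.20 and *Uty* between 7.46 and 7.95 on the log2 scale on the 5 arrays.

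Fatty acid binding proteins are small cytosolic proteins that hold a long-chain fatty acid or a related lipid inside a barrel and carry it between membranes, enzymes and nuclear receptors. Several of them deliver fatty acids to peroxisome proliferator-activated receptors (PPARs), which in turn activate genes of fatty acid use. The forms differ by cell: *Fabp1* is the abundant form of hepatocytes, *Fabp2* is the intestinal form, *Fabp3* the heart and muscle form, *Fabp4* the form of adipocytes, macrophages and some endothelial cells, *Fabp5* the epidermal form that macrophages also make, and *Fabp7* the brain form, which in liver is made by Kupffer cells, the resident macrophages of the sinusoids.

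Of 18820 named genes, 1570 were higher (8.34%) and 743 lower (3.95%) in the CSF1-Fc livers by limma at an adjusted p of 0.05. At an unadjusted limma p of 0.05, 2484 were higher and 2735 lower. The median log2 difference over all named genes was -0.078. Array medians lay between 31.1 and 33.0 intensity units, and arrays correlated at r = 0.983 to 0.991 within groups and 0.960 to 0.973 across them. Macrophage markers (15 of 15 higher), Kupffer cell markers (14 of 15), monocyte markers (10 of 11), neutrophil markers (10 of 12) and cell cycle markers (10 of 10) moved with the treatment. Their part in the differences below was not tested, and in whole liver more cells of a type cannot be told apart from more RNA per cell, nor fewer cells from less RNA.

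The members did not move together. On the log2 intensity scale, *Fabp7* was 3.55 ± 0.20 (limma SE, as in all differences below) higher in the 3 CSF1-Fc livers than in the 2 PBS livers, which is 11.8-fold, and *Fabp4* was 1.00 ± 0.19 higher, which is 1.99-fold. *Fabp2* and *Fabp5* stood lower in the CSF1-Fc livers by 1.76-fold and 1.80-fold, and *Fabp1* and *Fabp3* differed by 1.09-fold and 1.13-fold. The adjusted p was under 0.05 for 2 members on the higher side, *Fabp7* and *Fabp4*, and for 0 on the lower side. Over all named genes it was under 0.05 for 8.34% on the higher side and 3.95% on the lower. On the lower side 2 members, *Fabp2* and *Fabp5*, had an unadjusted limma p under 0.05, as had 2735 of the 18820 named genes. Groups did not overlap for 2 members on the higher side and 3 on the lower side, beside 18.2% and 29.3% of all named genes, and since the contrast chose the members nothing is read from these counts. The adjusted p of the members come from the same contrast and are no support for their differences. *Fabp4* was not past the threshold with the replicate block, with no moderation or when CSF1-Fc replicate 1 was left out. Its difference was 1.18 without PBS replicate 1 and 0.81 without PBS replicate 2. *Fabp2* passed on the lower side when CSF1-Fc replicate 2 was left out.

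**Figure D1:**
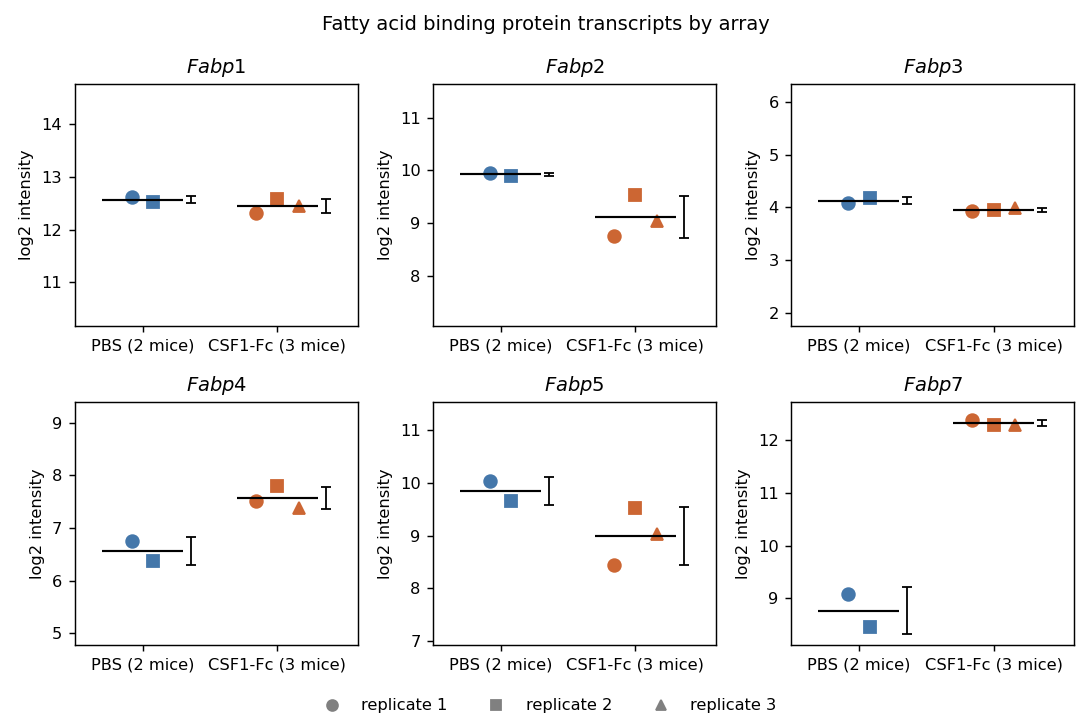
Log2 intensity of each of the 6 fatty acid binding proteins on each of the 5 arrays (2 PBS mice and 3 CSF1-Fc mice), with 1 point per mouse a line at each group mean and a bracket of 1 SD on either side of it. The *Fabp7* points of the CSF1-Fc mice sit at 12.29 to 12.39, above both PBS mice at 9.08 and 8.46, while the *Fabp1* points of the groups overlap.

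The 250 bases before the transcription start are shown for the hepatocyte form, the intestinal form and the Kupffer cell form, which are known from different cells. They come from the RefSeq promoter table of GRCm38.p6, which holds 4 of the 6 members. They lie at chr6:71199629-71199878 (*Fabp1*), chr3:122894822-122895071 (*Fabp2*) and chr10:57784673-57784922 (*Fabp7*), all on the plus strand, and end at the base before the start of transcription. Capitals mark matches, on either strand, to 6 letter strings: TGNCCT repeated with 1 base (N) between the copies, a direct repeat of the kind that PPARs bind, AGGTCA for a single nuclear receptor hexamer, GTTAAT for part of an HNF1 site, GAGGAA for the PU-box bound by the macrophage factor PU.1, CCAAT and TATAAA.
Fabp1: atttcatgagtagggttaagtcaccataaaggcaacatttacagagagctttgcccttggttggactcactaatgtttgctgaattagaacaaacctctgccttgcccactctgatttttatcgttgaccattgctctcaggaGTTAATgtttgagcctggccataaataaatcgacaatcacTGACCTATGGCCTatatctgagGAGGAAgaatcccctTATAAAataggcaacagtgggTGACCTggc
Fabp2: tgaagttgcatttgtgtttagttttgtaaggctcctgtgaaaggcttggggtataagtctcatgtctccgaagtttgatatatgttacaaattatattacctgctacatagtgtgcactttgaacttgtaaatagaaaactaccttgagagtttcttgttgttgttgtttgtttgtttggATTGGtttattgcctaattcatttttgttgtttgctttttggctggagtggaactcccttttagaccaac
Fabp7: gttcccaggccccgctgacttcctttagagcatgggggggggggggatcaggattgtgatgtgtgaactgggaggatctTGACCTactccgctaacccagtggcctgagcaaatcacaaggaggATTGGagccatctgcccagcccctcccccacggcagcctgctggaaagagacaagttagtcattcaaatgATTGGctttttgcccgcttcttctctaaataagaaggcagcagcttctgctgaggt

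The promoter of *Fabp1*, which encodes a known PPAR alpha target, held the direct repeat at -67 to -55, counted back from the start, a string found in 0.338% of 32851 mouse promoters of the same length. Its first hexamer is itself a match to AGGTCA (14.0% of promoters), and a second such hexamer lies at -9 to -4. The same promoter held GTTAAT at -107 to -102 (6.43% of promoters), GAGGAA at -45 to -40 (23.3%) and TATAAA at -30 to -25 (12.4%). The *Fabp7* promoter held AGGTCA at -171 to -166 and CCAAT at -126 to -122 and at -56 to -52, and the *Fabp2* promoter held CCAAT alone, at -70 to -66, a string found in 33.8% of promoters. The *Fabp3* promoter had no match. A match is a description of letters and not a measured site, and the strings were picked with these promoters in view.

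*Fabp7*, the form of Kupffer cells, brain radial glia and other glia, had the largest difference of the family. Its log2 intensity was 9.08 and 8.46 in the PBS livers and 12.39, 12.29 and 12.30 in the CSF1-Fc livers. All 3 CSF1-Fc livers lay above both PBS livers, with a gap of 3.21 between the nearest mice, and the group means were 8.77 ± 0.44 (SD, n = 2) and 12.32 ± 0.055 (SD, n = 3). In intensity units this was 540.2 and 352 against 5354, 4993 and 5029.5. On the log2 scale the PBS livers differed more from each other (0.62) than the CSF1-Fc livers did (0.10, highest minus lowest). In intensity units the CSF1-Fc livers were the farther apart. PBS replicate 1 was the higher of the PBS pair. The 95% limma interval of the difference ran from 3.07 to 4.04, and *Fabp7* ranked 34th of 18820 genes by log2 difference. Its gene lies at 10:57784923-57788450 in GRCm38.p6.

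The Kupffer cell markers moved in the same direction as *Fabp7* with a smaller median. Of 15 measured, 14 rose and 0 fell (limma adjusted p under 0.05, and also 0 lower at an unadjusted p of 0.05), with a median log2 difference of 2.15 beside -0.078 over all named genes, and the exception was *Id3* at 0.051. *Timd4*, a phagocytic receptor of resident macrophages, rose by 2.72 ± 0.14 (limma adjusted p = 0.000357), and *Spic*, a transcription factor of iron-handling macrophages, by 2.71 ± 0.13 (adjusted p = 0.000357). The mean of the list stood 2.01, 1.98 and 1.85 above the PBS mean in the 3 CSF1-Fc livers, and PBS replicate 1 stood 0.14 above and PBS replicate 2 0.14 below it. *Fabp7* stood 3.62, 3.52 and 3.53 above its own PBS mean in the same livers. Of 8 glia markers measured, 6 were at a mean log2 intensity under 5, a level at which 8049 of the 18820 named genes lay, and the defining glia genes *Gfap* and *Sox10* were among them. *Cnp*, which is also expressed outside glia, was the 1 glia marker that rose, by 0.75 ± 0.15 (adjusted p = 0.0324). *Slc1a3*, a glutamate transporter, was at 0.55 ± 0.16 (adjusted p = 0.0954), with all CSF1-Fc livers above both PBS livers, and these 2 were the glia markers higher at an unadjusted p of 0.05.

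By the root mean square distance over the 5 arrays, after each gene was centred on its own mean of the group means, the genes with a mean log2 intensity of at least 5 nearest to *Fabp7* were *Fam111a* (0.0516), *Fcgr1* (0.0847) and *Ms4a6c* (0.0905). *Fcgr1* encodes the high-affinity receptor for immunoglobulin G on macrophages and was also the macrophage marker with the largest difference, 3.66 ± 0.18 (adjusted p = 0.000357). The distances are log2 units over 5 arrays in which the treatment separates the groups, so they describe a shared shift.

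**Figure D2:**
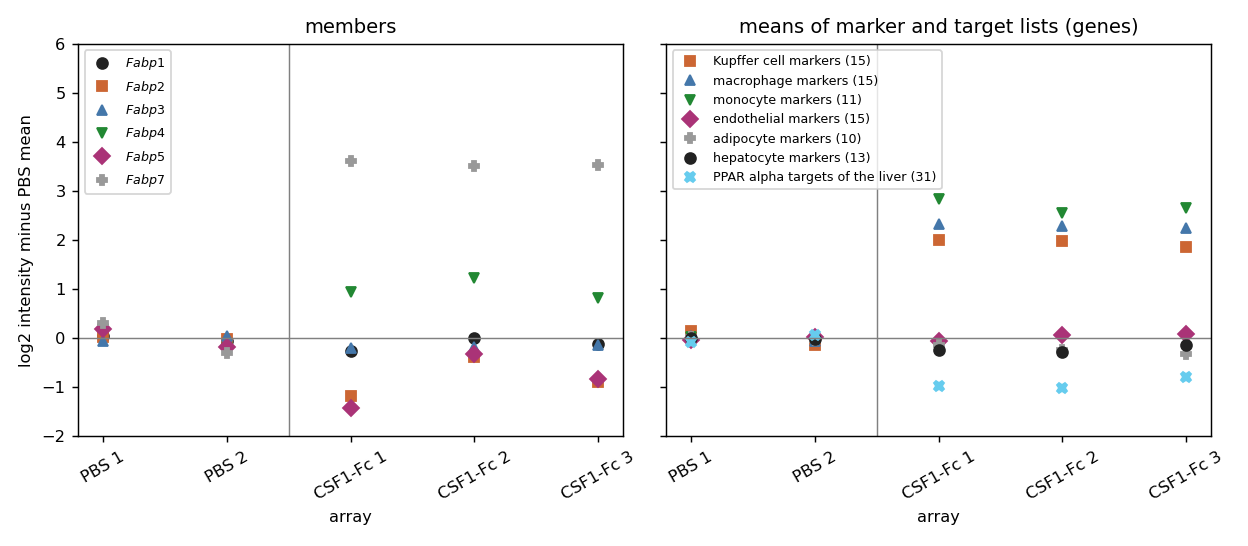
Log2 values minus the PBS mean on each of the 5 arrays, 1 point per mouse, for the members on the left and, on the right, for the means of the marker and target gene lists. *Fabp7* stands 3.52 to 3.62 above its PBS mean in the CSF1-Fc mice, whereas the Kupffer cell marker mean stands 1.85 to 2.01 above and the hepatocyte marker mean 0.13 to 0.28 below.

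*Fabp4* and *Fabp5*, which macrophages make among other cells, differed in opposite directions. Which cells gave the *Fabp5* signal of whole liver was not tested. *Fabp4* was at 6.76 and 6.38 in the PBS livers and 7.50, 7.80 and 7.39 in the CSF1-Fc livers. The groups did not overlap and the nearest mice were 0.63 apart. Means were 6.57 ± 0.27 (SD, n = 2) and 7.56 ± 0.21 (SD, n = 3), and the 95% limma interval of the difference was 0.54 to 1.45. It ranked 1195th from the top of the 18820 genes by difference. *Tmem164* (0.0220), *Abracl* (0.0298) and *Gyg* (0.0472) were the nearest genes to it by the same distance.

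*Fabp5* was at 10.03 and 9.66 in the PBS livers and 8.44, 9.53 and 9.02 in the CSF1-Fc livers. All CSF1-Fc livers were lower than both PBS livers, by 0.13 at the nearest, and CSF1-Fc replicate 2 was close to PBS replicate 2. The difference was -0.85 ± 0.32, with a 95% limma interval of -1.62 to -0.08. The lowest and highest CSF1-Fc mice were farther apart than the group means, which were 9.85 ± 0.26 (SD, n = 2) and 8.998 ± 0.55 (SD, n = 3). The array carries 2 further rows for *Fabp5*, which differed by -0.84 at a similar brightness and by -0.45 at a dimmer level. The annotation holds a processed copy, *Fabp5l2*, so which locus each row measures is uncertain, and likewise for *Fabp3*, which has the pseudogene *Fabp3-ps1*.

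The macrophage markers rose in 15 of 15 cases, with 0 lower at either an adjusted or an unadjusted p of 0.05 and a median of 2.51, and their mean stood 2.34, 2.29 and 2.26 above the PBS mean in the CSF1-Fc livers. Markers of adipocytes and endothelial cells, which also make *Fabp4*, were measured beside it, and their part in its difference was not tested. Of 10 adipocyte markers, 7 were at a mean log2 intensity under 5, including *Adipoq*, *Lep* and *Plin1*, 0 were higher by limma at an adjusted or an unadjusted p of 0.05, and 2 were lower at an unadjusted p of 0.05. *Cidec*, a lipid droplet protein, was the 1 adipocyte marker that fell, by 0.71 on the log2 scale (adjusted p = 0.0444), and *Plin4* was at -0.90 ± 0.22 (adjusted p = 0.0601). Of 15 endothelial markers, *Cdh5*, the adhesion protein of endothelial junctions, rose by 1.38 ± 0.20 (adjusted p = 0.00870, but 0.0737 and 0.0617 when PBS replicate 1 or 2 was left out) and *Clec4g* fell by 0.74 (adjusted p = 0.0176), the other 13 did not pass, and the list median was 0.10. At an unadjusted limma p of 0.05, 5 of the 15 were higher and 4 lower, beside 2484 and 2735 of the 18820 named genes. Besides *Cdh5*, those on the higher side were *Lyve1* at 0.84, *Cd34* at 0.56, *Rbp7* at 0.45 and *Pecam1* at 0.36 (adjusted p = 0.115, 0.0947, 0.159 and 0.135). Besides *Clec4g*, those on the lower side were *Kdr*, a receptor for vascular endothelial growth factor, at -0.95, *Tek* at -0.89 and *Vwf* at -0.34 (adjusted p = 0.0538, 0.0505 and 0.171).

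Monocyte and neutrophil markers had medians of 2.95 and 2.33, led by *Ifitm6* (4.37 ± 0.32, adjusted p = 0.000600), *Cd300e* (4.35 ± 0.18, adjusted p = 0.000357), *Retnlg* (4.17 ± 0.36, adjusted p = 0.00101) and *S100a8* (3.97 ± 0.47, adjusted p = 0.00387). The cell cycle markers, 10 of 10 higher, had a median of 3.52.

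*Fabp1*, the hepatocyte form, overlapped between the groups. It was at 12.62 and 12.52 in the PBS livers and 12.32, 12.57 and 12.45 in the CSF1-Fc livers. CSF1-Fc replicate 2 lay above PBS replicate 2, and CSF1-Fc replicates 1 and 3 lay below both PBS livers. The difference was -0.12 ± 0.14 and its 95% limma interval, -0.45 to 0.21, covers 0. The nearest genes were *Maoa* (0.0130), *Nfkbil1* (0.0257) and *Sgms1* (0.0294).

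*Fabp2*, the intestinal form, was at 9.94 and 9.90 in the PBS livers and 8.75, 9.53 and 9.03 in the CSF1-Fc livers. The groups did not overlap, with 0.37 between the nearest mice. CSF1-Fc replicate 2 was again the highest of its group, as it was for *Fabp5*, *Fabp1* and *Fabp4*. The difference was -0.82 ± 0.24, with a 95% limma interval of -1.39 to -0.25, from means of 9.92 ± 0.028 (SD, n = 2) and 9.10 ± 0.40 (SD, n = 3). *Fabp2* and *Fabp5* ranked 595th and 536th from the bottom of the 18820 genes. *Fabp2* was itself the third nearest gene to *Fabp5* (0.154), after *Pate11* (0.127) and *Hamp2* (0.151). The genes nearest to *Fabp2* were *Il15ra* (0.0554), *Pxmp2* (0.0752), a peroxisomal membrane protein, and *Bdh2* (0.0934), a dehydrogenase.

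Hepatocyte markers were measured beside them. Of 13 genes, 1 fell, *Asgr2*, a subunit of the asialoglycoprotein receptor (-0.82 ± 0.14, adjusted p = 0.0156), 0 rose at an adjusted or an unadjusted p of 0.05, and the median was -0.11. At an unadjusted p of 0.05, 4 were lower, beside 2735 of the 18820 named genes. The groups did not overlap on the lower side for 6 (beside the 29.3% of all named genes). *Cps1*, the first enzyme of the urea cycle, was at -0.62 ± 0.22 (adjusted p = 0.147), *Cyp2e1* at -0.41 (0.137) and *Asgr1* at -0.33 (0.183). Of 12 intestinal epithelium markers, 10 were at a mean log2 intensity under 5, and 1 fell, *Lgals4*, a galectin, at -1.49 ± 0.17 (adjusted p = 0.00355). *Alpi*, an intestinal phosphatase, was at -0.29 ± 0.15 (adjusted p = 0.300), and the list median was -0.11.

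*Fabp3* was dim. Its brightest row was at 4.08 and 4.17 in the PBS livers and 3.93, 3.95 and 3.99 in the CSF1-Fc livers, a difference of -0.17 ± 0.12, and the second row differed by -0.32. The groups were apart by 0.091 in the brighter row. Of 10 muscle markers, 9 were also under a log2 intensity of 5 and 0 passed in either direction at an adjusted or an unadjusted p of 0.05, with *Actc1* at 0.34 and *Tnnc1* at -0.17. The nearest genes to *Fabp3* were *Car3* (0.0170), *Aamp* (0.0225) and *Cited2* (0.0253).

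The other proteins of the same fold were near the lower end of the scale. The 8 examined all had a mean log2 intensity under 5. By limma 0 passed in either direction, with *Rbp7* the 1 gene higher at an unadjusted p under 0.05. Their log2 differences were 0.45 for *Rbp7*, a retinol carrier of endothelium and fat, 0.13 for the ileal bile acid carrier *Fabp6*, 0.019 for *Fabp12*, -0.086 for *Crabp1*, -0.10 for *Fabp9*, -0.16 for the myelin protein *Pmp2*, -0.22 for *Crabp2* and -0.28 for the intestinal retinol carrier *Rbp2*. In GRCm38.p6 the *Fabp5*, *Pmp2*, *Fabp9*, *Fabp4* and *Fabp12* genes lie in this order on chromosome 3, from 10012585 to 10301515. Other genes between them were not examined. The group included *Fabp4*, which was higher, and 3 genes near the dim end. It also included *Fabp5*, which stood lower without passing and whose rows are of uncertain locus.

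**Figure D3:**
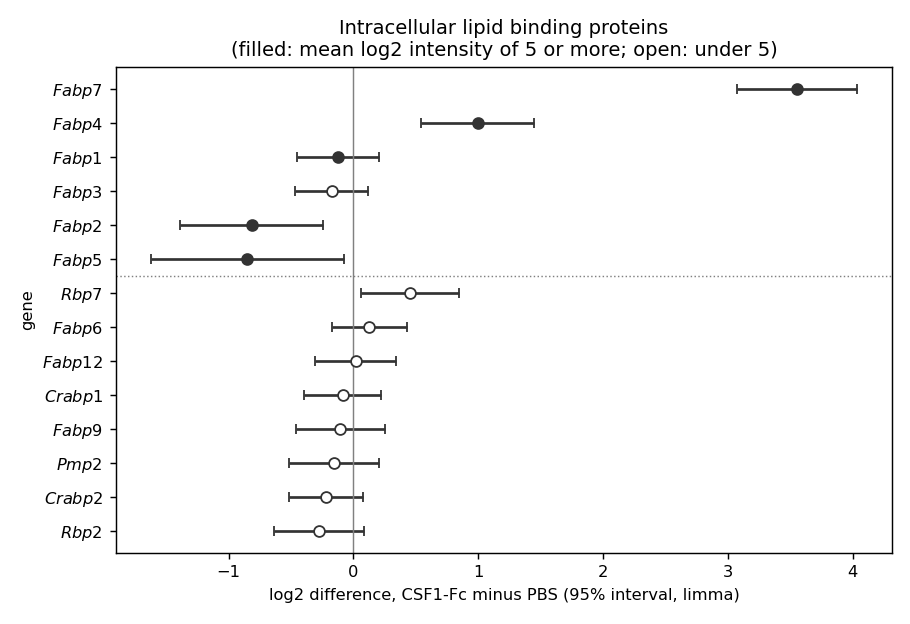
Log2 difference, CSF1-Fc minus PBS, of each member and of the 8 other intracellular lipid binding proteins measured, with 95% limma intervals, filled where the mean log2 intensity was at least 5. *Fabp7* is at 3.55 and *Fabp4* at 1.00, *Fabp2* and *Fabp5* are at -0.82 and -0.85, and the dim genes lie between -0.28 and 0.45.

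Ratios within an array are unchanged by 1 scaling factor per array, but not by every normalization. They are built from the member values above and are not separate evidence. Over the 3 CSF1-Fc livers, the *Fabp7* to *Fabp1* log2 ratio stood 3.87, 3.51 and 3.65 above its PBS mean, a mean shift of 3.68 ± 0.18 (SD, n = 3). The *Fabp4* to *Fabp1* ratio shifted by 1.12 ± 0.15, and the *Fabp7* to *Fabp4* ratio by 2.56 ± 0.24. The forms that were higher thus moved away from the hepatocyte form in every treated liver, and unequally.

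Ratios that hold *Fabp5* were more spread. *Fabp4* to *Fabp5* shifted by 2.35, 1.54 and 1.65, with the largest value in CSF1-Fc replicate 1, and *Fabp7* to *Fabp5* by 5.03, 3.83 and 4.35. *Fabp5* to *Fabp1* fell by 0.73 on the log2 scale on average (-1.16, -0.32 and -0.70) and *Fabp2* to *Fabp1* by 0.69 (-0.92, -0.39 and -0.77). *Fabp5* to *Fabp2* differed by -0.034 ± 0.18, less than the spread between mice.

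**Figure D4:**
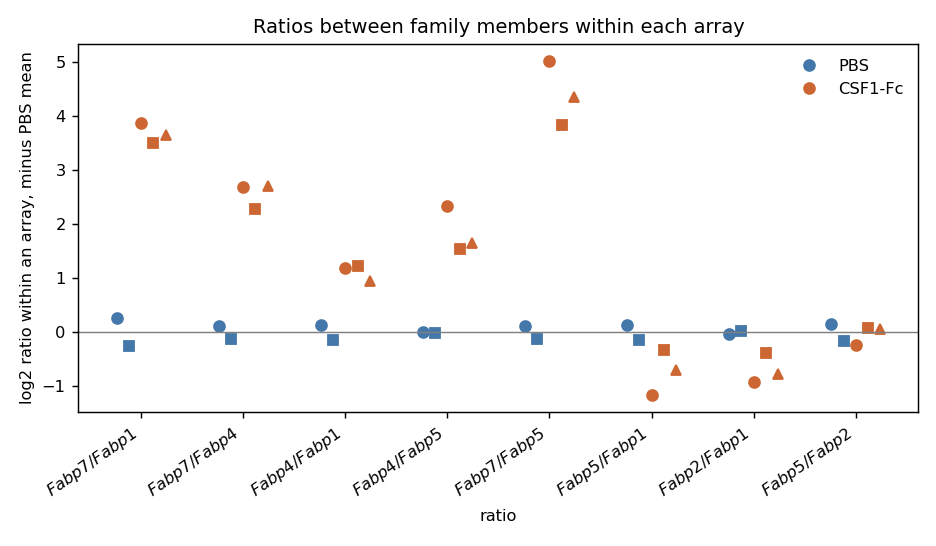
Log2 ratio between pairs of members on the same array, minus the mean of the ratio in the PBS mice, with 1 point for each of the 5 arrays. The *Fabp7* to *Fabp1* ratio lies at 3.51 to 3.87 in the CSF1-Fc mice, and the *Fabp5* to *Fabp2* ratio at -0.24 to 0.073.

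The genes that work beside these carriers were taken from 6 lists. Of 129 genes, 112 were measured, of which 11 were higher, 30 lower and 71 did not pass, with a median log2 difference of -0.41. Leaving out a mouse moved these counts, to 5 higher and 7 lower when PBS replicate 2 was dropped, 11 lower when PBS replicate 1 was dropped and 14 lower when CSF1-Fc replicate 1 was dropped.

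Targets of PPAR alpha, the receptor to which liver fatty acid binding protein delivers its ligands, were lower in 19 of 31 cases and higher in 1, *Acot2*, with a median of -0.86. *Fabp1*, which is regulated by the same receptor, lay at -0.12. Its mean log2 intensity was 12.50, beside 13.24 for *Alb*, the albumin gene, and *Fabp7* stood at 12.32 in the CSF1-Fc livers. Whether differences at such bright levels were limited by the top of the scale was not tested. *Cyp4a14* and *Cyp4a31*, fatty acid omega-hydroxylases, fell by 2.96 and 2.86 on the log2 scale (adjusted p = 0.000985 and 0.000737), as did *Acaa1b*, a peroxisomal thiolase, by 2.08 (0.000450). *Vnn1*, a pantetheinase, fell by 1.75 (0.00882). The *Cyp4a* and *Acaa1* genes have near-identical copies that array rows may share. The count of 19 became 7 with PBS replicate 1 dropped, 3 with PBS replicate 2 dropped and 9 with CSF1-Fc replicate 1 dropped. The calls of *Cyp4a14*, *Cyp4a31* and *Acaa1b* held in each, and that of *Vnn1* did not without either PBS mouse (0.0633 and 0.0722). *Acot2* (0.81, adjusted p = 0.0190) did not pass in any of those 3.

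Among lipases and lipid droplet proteins, 1 of 20 rose and 7 fell, with a median of -0.31. *Lpl*, the lipase that releases fatty acids from lipoproteins, rose by 1.78 ± 0.22 (adjusted p = 0.00520, but 0.0535 without PBS replicate 2). *Lipg*, an endothelial lipase, was at -1.95 ± 0.18 (adjusted p = 0.00126), *G0s2*, an inhibitor of adipose triglyceride lipase, at -1.80 ± 0.18 (0.00197), and *Mgll*, monoacylglycerol lipase, at -1.48 ± 0.16 (0.00250). The lower count was 4 without either PBS mouse.

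In macrophage lipid and cholesterol handling, 5 of 17 rose, 0 fell (3 at an unadjusted limma p under 0.05) and the median was 0.19. They included *Lgals3* at 3.24 ± 0.19 (adjusted p = 0.000422), *Trem2*, a lipid-sensing receptor, at 3.09 ± 0.19 (0.000447), *Msr1*, a scavenger receptor, at 2.76 ± 0.19 (0.000485) and *Abcg1*, a cholesterol exporter, at 2.37 ± 0.13 (0.000392). *Lgals3* also stands in the macrophage marker list. The differences of these 4 genes were 2.37 to 3.24, beside 3.55 for *Fabp7* and 1.00 for *Fabp4*. Without CSF1-Fc replicate 3, 1 gene of the list passed on the lower side.

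In fatty acid uptake and activation, 2 of 16 rose and 1 fell, with a median of -0.19. *Cd36*, the fatty acid translocase, was at 1.12 ± 0.14 (adjusted p = 0.00551, but 0.0617 without PBS replicate 2). *Acss1*, a mitochondrial acetyl-CoA synthetase, was at 1.09 ± 0.23 (0.0371) and *Slc27a5*, the bile acyl-CoA synthetase of hepatocytes, at -0.89 ± 0.19 (0.0342). Among acyl-CoA and lipid carriers, 1 of 13 rose, *Gltp*, a glycolipid transfer protein (2.52 ± 0.22, adjusted p = 0.00118), and 2 fell, *Scp2*, the sterol carrier (-0.72 ± 0.16, 0.0456), and *Pctp*, a phosphatidylcholine carrier (-0.56 ± 0.13, 0.0494), with a median of -0.32. Among nuclear receptors and coactivators, 1 of 15 rose, *Nr1h3*, the oxysterol receptor LXR alpha (0.78 ± 0.16, 0.0308), and 1 fell, *Nr1h4*, the bile acid receptor FXR (-0.75 ± 0.17, 0.0430), with a median of -0.28. *Nr1h3* also stands in the Kupffer cell list.

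Of these smaller counts, *Gltp* passed without any single CSF1-Fc mouse. *Acss1*, *Slc27a5*, *Scp2*, *Pctp*, *Nr1h3* and *Nr1h4* failed to pass when CSF1-Fc replicate 1 was left out. *Nr1h3* and *Nr1h4* also failed without CSF1-Fc replicate 2, where 1 carrier gene passed on the lower side. Fits without a PBS mouse leave 1 control, and their calls are not given for these genes. Without CSF1-Fc replicate 3, 4 uptake genes and 3 nuclear receptor genes passed on the lower side, and 1 uptake gene on the higher side.

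**Figure D5:**
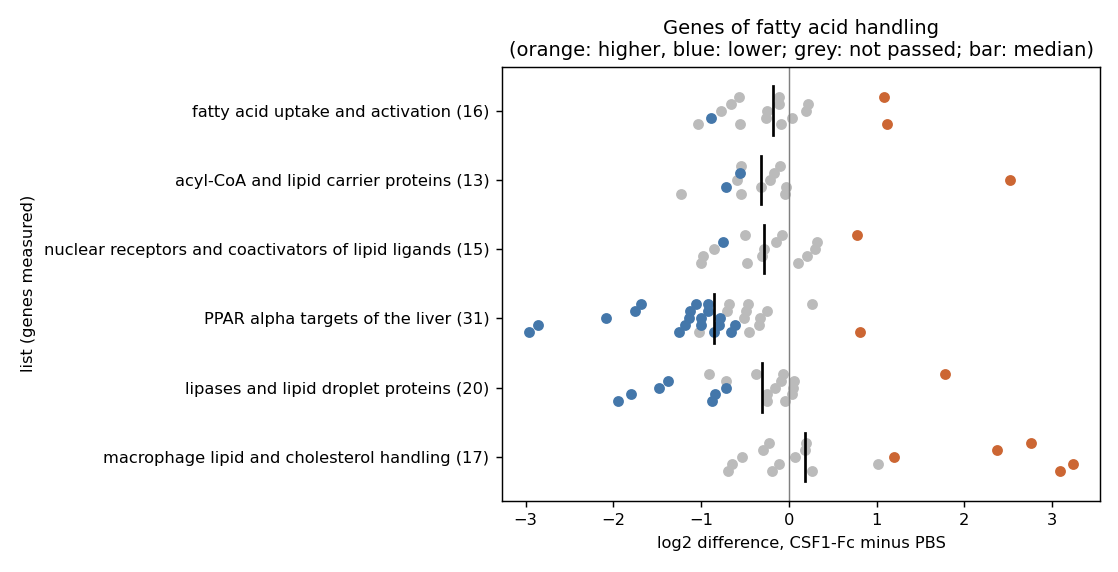
Log2 difference, CSF1-Fc minus PBS, of each measured gene of the 6 lists of fatty acid handling, 1 point per gene, coloured by whether it passed limma at an adjusted p of 0.05, with a line at each list median. The PPAR alpha targets have a median of -0.86, with 19 of 31 lower, and the macrophage lipid and cholesterol list has a median of 0.19, with 5 of 17 higher.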

How the data were processed

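Liver RNA was amplified and biotin-labelled, and each of 5 mice gave 1 Affymetrix Mouse Gene 1.1 ST array. The deposited values are the authors' normalized intensities on a linear scale, 1 per array row. The steps of background correction and scaling, not given in the sources used here, are unknown. The submitters' processing notes name Affymetrix Expression Console 1.1. Groups came from the labels, and replicates are separate mice. The labels and the study's methods name different RNA extraction reagents.

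Deposited intensities were taken to log2 with no pseudocount or filter and fitted in R 4.3.3 with limma 3.58.1 (lmFit with 1 mean per group, eBayes, residual degrees of freedom 3 and prior 3.34). P-values are two-sided and adjusted by Benjamini-Hochberg over 35556 rows. Of these rows, 21218 carry 1 gene symbol and cover 18820 genes, and 1386 genes have several rows, of which the brightest was used. The number of arrays limits the precision, and an exact one-sided permutation test could not go below p = 0.1.

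The members, gene lists and named genes were chosen with earlier results of these data known. Named were all members, the other proteins of the fold, up to 4 list genes with the largest differences among those that passed, 2 genes per marker list and the 3 genes nearest to each member. *Acot2*, *Clec4g*, *Lyve1*, *Cd34*, *Pecam1*, *Tek*, *Vwf*, *Cyp2e1*, *Asgr1*, *Id3*, *Adipoq*, *Lep*, *Plin1*, *Gfap*, *Sox10*, *Xist* and *Uty* were named after their values were seen. Listed genes without a row of a single symbol (17 of the 129) were not analysed here.

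Alternatives were quantile normalization, centring on array medians or on liver secreted proteins, a replicate block, array weights, a trended variance, no moderation, a log2 limit of 5, log2(value + 16), the mean over rows, a threshold of 0.01 and leaving out each mouse. The fit was tested on simulated data. Promoters were searched as letters on both strands.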

Additional observations from a re-analysis of the deposited data

How the results depend on the processing

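The 6 members kept the sign of their difference under every setting run, and *Fabp7* ranged from 3.51 to 3.66 under other processing and from 3.25 to 3.86 when a mouse was left out. *Fabp3*, the dim member, was at -0.090 after quantile normalization, at -0.088 with log2(value + 16), at -0.064 after centring on liver secreted proteins, at -0.24 as the mean over its rows, and between -0.22 and -0.13 without 1 mouse. When a mouse was left out, *Fabp1* ranged from -0.19 to -0.058, *Fabp2* from -1.03 to -0.64, *Fabp4* from 0.81 to 1.18 and *Fabp5* from -1.12 to -0.57. *Fabp2* was lower at an adjusted p of 0.05 with array weights and without CSF1-Fc replicate 2, *Fabp5* with array weights, and *Fabp4* was not higher with the replicate block or with no moderation.

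Counts depended more on the settings, and the causes were not tested. The 11 higher genes of fatty acid handling were 3 with no moderation and 5 to 11 without 1 mouse. The 30 lower genes were 52 with array weights, 5 with no moderation, 14 at a threshold of 0.01 and 7 to 33 without 1 mouse. Over all named genes, the 1570 higher were 419 with no moderation, 974 at 0.01 and 849 to 1525 without 1 mouse. The 743 lower were 481 with the replicate block, 2231 with array weights, 92 with no moderation, 126 at 0.01 and 81 to 1046 without 1 mouse. Centring on liver secreted proteins moved the median of all genes by 0.11, from -0.078 to 0.030, and left *Fabp1* at -0.014.

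Deviations of same-numbered mice from their group means correlated at -0.055 and -0.31. With 2 PBS mice the deviations are mirror images, so these values cannot show whether replicate numbers pair the mice. With the replicate block, *Fabp7* was at 3.57, *Fabp4* at 1.08, *Fabp5* at -0.86 and *Fabp2* at -0.78, and 9 genes of fatty acid handling were higher and 21 lower. With 2 control mice and unstated background correction, differences of dim genes are the least certain.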
